A study of Mus musculus with 190 samples.

Results

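Whole-blood RNA of the last-sampled conventional cohort, group 9, was compared between its second sampling on day 44 and its first on day 30. All 20 libraries carrying the group 9 title were used, 10 for day 44 and 10 for day 30, out of 190 libraries in the series, and all genes of the count table entered. The samples came from male NC/Nga mice of wild-type (WT) genotype in conventional housing, with no further treatment or allele named in the labels, which give the sampling day but not the age. Unlike the groups first sampled early in the study, this one already had visible dermatitis at both samplings, so the comparison does not bear on onset of the disease. A later day, a second sampling and any progression of the disease coincide on day 44 and cannot be told apart. The series asks how the blood transcriptome differs before and after the onset of atopic dermatitis-like disease and with its severity.

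NC/Nga is an inbred mouse strain that can develop itching, eczema-like skin lesions when kept in conventional rooms and is widely used as a model of atopic dermatitis. In atopic disease, skin inflammation is accompanied in blood by shifts among granulocytes, lymphocytes and their activation genes. Whole blood also carries platelets and red cell precursors called reticulocytes, which still hold RNA for hemoglobin, heme synthesis and the red cell membrane. Tail-vein blood drawn through the skin can carry traces of skin and connective tissue RNA.

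The visible dermatitis score averaged 2.35 ± 0.82 on day 44 and 1.65 ± 0.75 on day 30 (SD, n = 10 each). On day 44, 5 libraries had a score of 3, 4 had 2 and 1 had 0.5. On day 30, 1 library had a score of 3, 5 had 2, 3 had 1 and 1 had 0.5. The difference of 0.7 gave p = 0.0751 in a two-sided permutation test (adjusted p = 0.225 over 3 measures). The test took the libraries as unpaired and did not call a difference, which does not show that the scores were equal. By replicate number, 6 numbers had a higher score on day 44, 4 the same and 0 a lower one. The labels do not say whether a number marked the same mouse on both days, and the expression values did not settle it.

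Total expected counts ranged from 28032436 to 56017852 on day 44 and from 26389838 to 48326058 on day 30. Globin genes took 7.45 ± 2.21% of the counts on day 44 and 7.33 ± 2.77% on day 30 (SD, n = 10 each; permutation p = 0.919), after a library kit that depletes globin and ribosomal RNA. Mitochondrial rRNA took 15.6 ± 4.65% on day 44 and 16.2 ± 5.42% on day 30 (permutation p = 0.809). Both shares were lowest in day 30 replicate 8, with 0.728% globin and 3.54% mitochondrial rRNA, and low in day 44 replicate 5, with 2.46% and 6.39%. In the other 18 libraries they ran from 6.05% to 10.8% and from 11.3% to 22.3%. The blood label was borne out by its markers: the mature neutrophil list averaged 5.61 log2 CPM (counts per 1000000 counts of a library) on day 44 and 5.11 on day 30, the platelet list 5.60 and 5.73, and the erythroid list 7.16 and 6.68.

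No gene passed the test between day 44 and day 30 at an adjusted p under 0.05. Of 18192 genes tested with edgeR's quasi-likelihood test, 0 were called (0%), and the smallest adjusted p was 0.408. At an unadjusted p under 0.05, 2124 genes (11.7%) differed, 1393 higher on day 44 (7.66%) and 731 lower (4.02%). The same contrast in a fit that also held groups 7 and 8 and the SPF (specific-pathogen-free) control, 70 libraries that share one estimate of the spread, called 420 genes (2.31%), 375 higher (2.06%) and 45 lower (0.247%). DESeq2 on the 20 libraries called 13 genes (0.0719%). The values below are therefore given as levels and differences, and an unadjusted p marks where a difference stood out among its own replicates without passing the correction. For bulk blood, fewer cells of a type and less RNA per cell cannot be told apart.

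**Figure D1:**
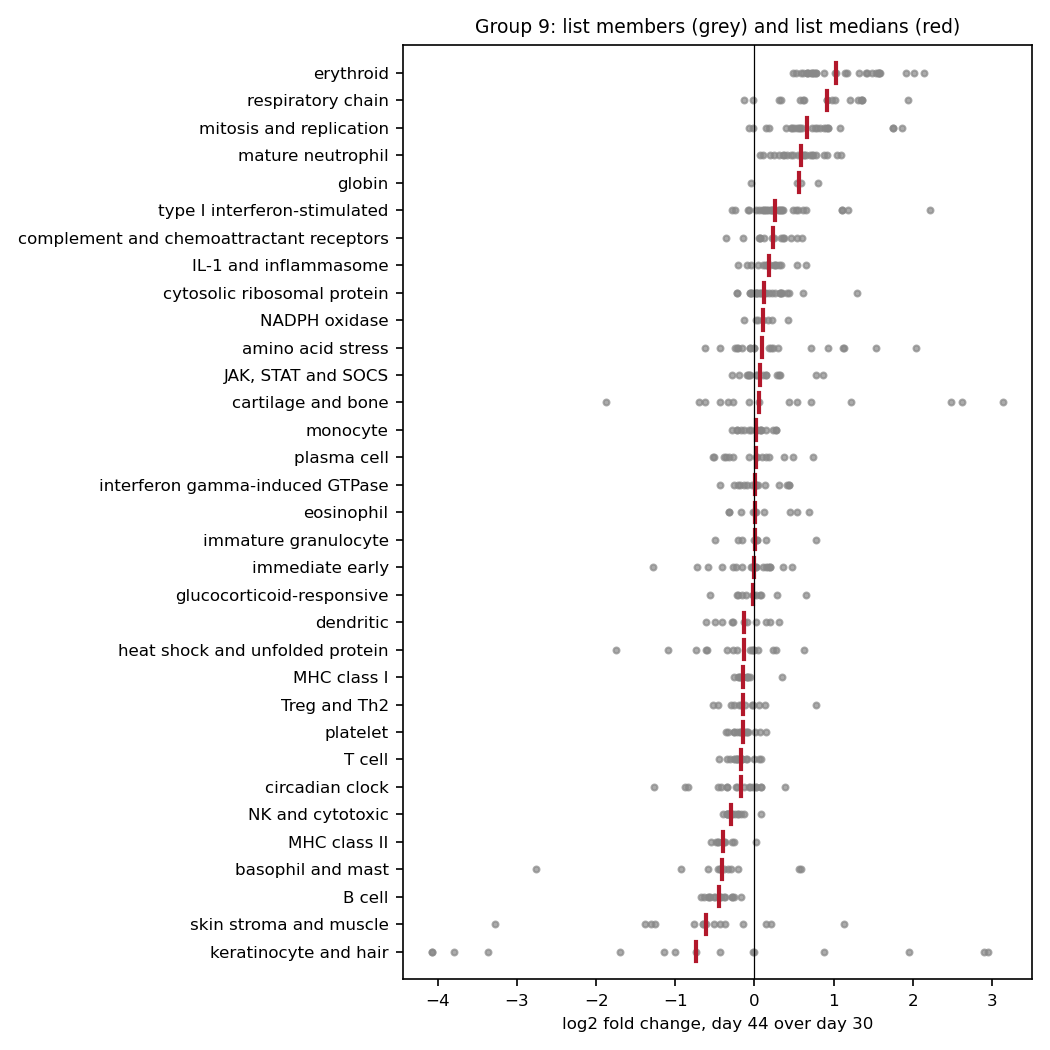
Log2 fold changes of day 44 over day 30 in group 9 for the tested members of 33 gene lists, 1 grey point a gene, with the list median in red. Erythroid, respiratory chain, mitosis and neutrophil members lie to the right of 0 and B cell and MHC class II members to the left, with medians from 1.03 for erythroid genes to -0.74 for keratinocyte and hair genes.

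Mat2a and a group of heat shock chaperones had lower average levels on day 44. Mat2a encodes methionine adenosyltransferase 2A, which makes the methyl donor S-adenosylmethionine, and lies on the minus strand at chr6:72409782-72416541 (GRCm39). It had 29.1, 30.9, 27.3, 25.5, 20.2, 27.8, 18.3, 27.3, 28.3 and 18.6 CPM in day 44 replicates 1 to 10, against 41.7, 33.2, 45.7, 34.3, 31.9, 40.9, 37.8, 38.4, 32.8 and 42.7 CPM in day 30 replicates 1 to 10. Every day 44 library lay below every day 30 library, and of the 18192 genes tested this was the case for Mat2a alone (0.0055%), with 0 genes separated the other way (0%). The log2 fold change was -0.58 ± 0.12 (SE), with an adjusted p of 0.408 in edgeR's test and 5.58e-04 in DESeq2. It was among the 45 genes called lower in the fit of 70 libraries (adjusted p = 0.0233), and it stayed between -0.62 and -0.53 when each library was left out in turn. Mat2a was singled out after its values were seen.

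The list of heat shock and unfolded protein genes held 16 members, all tested. Of these, 5 were lower on day 44 at an unadjusted p under 0.05 (4.02% of all genes tested were) and 1 was higher (7.66%), and the list median was -0.14, beside -4.7e-05 for all genes. The 5 lower members were chaperones of the cytosol. Hspa1b, an inducible Hsp70, had 0.253, 0.367, 0.351, 0.591, 0.444, 0.692, 0.517, 0.367, 0.23 and 1.07 CPM in day 44 replicates 1 to 10, against 0.665, 1.5, 1.15, 0.376, 1.22, 5.68, 1.84, 2.52, 0.358 and 0.747 CPM in day 30 replicates 1 to 10. All 10 day 44 libraries were below the day 30 median for Hspa1b, and the highest value was in day 30 replicate 6. Its log2 fold change was -1.76 ± 0.43, and between -1.91 and -1.27 with each library left out. Hspa1a, its near-identical copy with which it may share reads, stood at -1.09.

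Hsph1, an Hsp110 that helps Hsp70 exchange its nucleotide, averaged 16.1 ± 3.66 CPM on day 44 and 24.5 ± 7.73 CPM on day 30 (SD, n = 10 each), and 7 of 10 day 44 libraries lay below every day 30 library. Its log2 fold change was -0.61 ± 0.16. Dnajb1, an Hsp40 co-chaperone, averaged 9.77 ± 2.12 CPM on day 44 and 14.8 ± 4.29 CPM on day 30, a log2 fold change of -0.60 ± 0.16. Hspa8, the constitutive Hsc70, averaged 83.3 ± 11.4 CPM on day 44 and 105.6 ± 10.4 CPM on day 30, and 9 of 10 day 44 libraries lay below every day 30 library. Dnaja1, a further Hsp40 co-chaperone outside the list and chosen after its values were seen, averaged 45.8 ± 8.89 CPM on day 44 and 70.6 ± 18.2 CPM on day 30, with 8 of 10 day 44 libraries below all of day 30. In edgeR's test of the 20 libraries each of these genes had an adjusted p of 0.408. In the fit of 70 libraries Hspa1b (adjusted p = 0.0314), Dnajb1 (0.0233) and Hspa8 (0.0444) passed, as did Dnaja1 (0.0248), while Hsph1 had an adjusted p of 0.0548.

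Of the 16 members, 12 had a negative log2 fold change and 4 a positive one. The 2 chaperones of the endoplasmic reticulum named here were among the positive ones. Calr, the calcium-binding chaperone calreticulin, was the 1 member higher on day 44 at an unadjusted p under 0.05, with a log2 fold change of 0.63, and Hspa5, the Hsp70 of that compartment, stood at 0.28. No member of the list was higher at an unadjusted p under 0.05 without day 44 replicate 7, or with the erythroid list mean as a covariate. The list mean per library ran from 2.86 to 3.17 log2 CPM on day 44 and from 3.05 to 3.46 on day 30, and 7 of 10 day 44 libraries were below the lowest day 30 library.

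**Figure D2:**
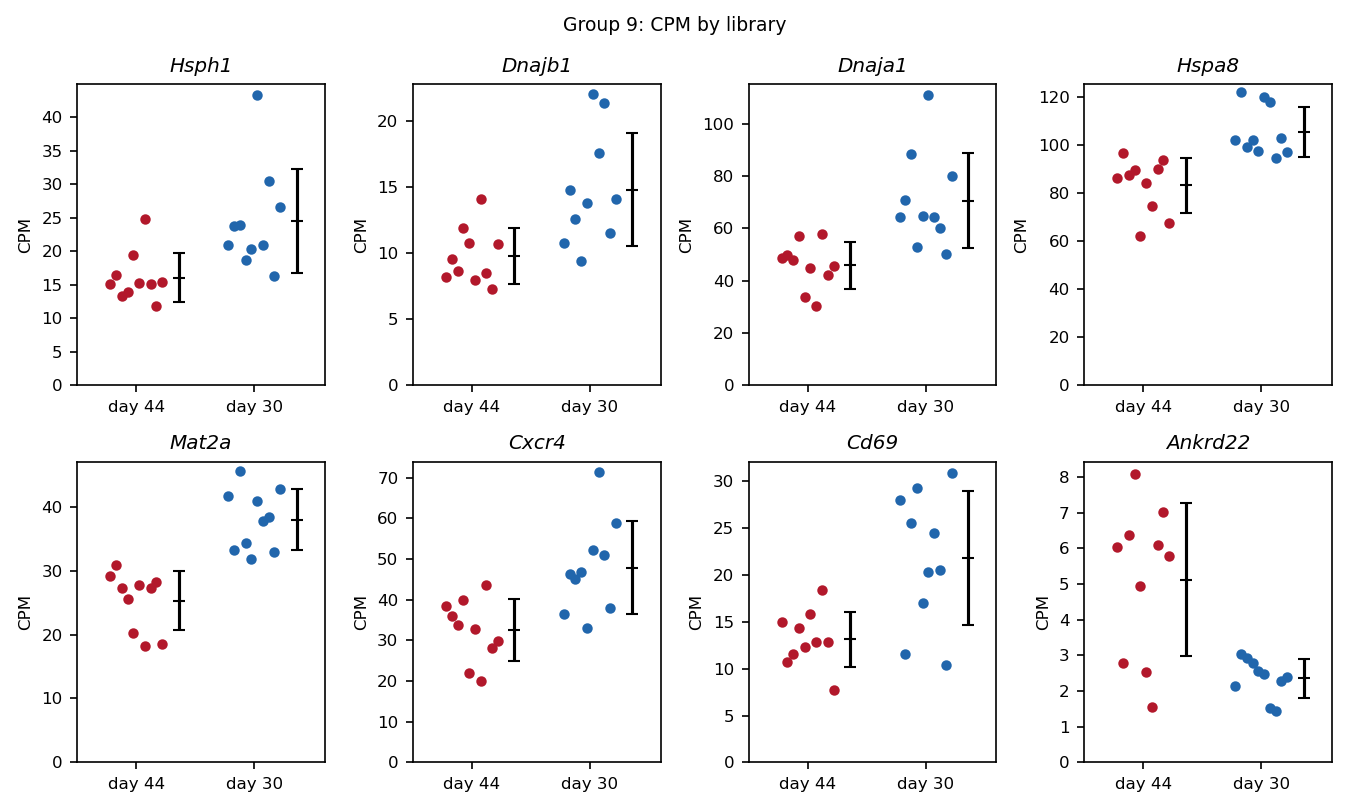
CPM of 8 genes in the 10 day 44 (red, left) and 10 day 30 (blue, right) libraries of group 9, with the mean and SD as black bars. The day 44 and day 30 values of Mat2a do not overlap, those of Hsph1, Dnajb1, Dnaja1, Hspa8, Cxcr4 and Cd69 lie lower on day 44 with overlap, and Ankrd22 is higher on day 44 in 7 of 10 libraries.

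The heat shock element, to which heat shock factors bind, is built of inverted GAA units, and the pair GAANNTTC was searched on both strands. The promoter of Hspa1b holds 1 match and is shown because this gene had the largest negative log2 fold change on the list. It spans chr17:34959189-34959488 on the minus strand of GRCm38.p6 (RefSeq), 250 bases before to 50 after the start, with the match in capitals.
Hspa1b: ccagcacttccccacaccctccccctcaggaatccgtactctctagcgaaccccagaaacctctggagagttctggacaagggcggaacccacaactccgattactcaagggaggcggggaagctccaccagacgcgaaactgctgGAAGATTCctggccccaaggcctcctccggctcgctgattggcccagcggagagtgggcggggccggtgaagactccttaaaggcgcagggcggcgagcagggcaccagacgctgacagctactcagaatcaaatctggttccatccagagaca
A promoter with this match was listed for 4 of the 13 heat shock genes that have one in the table, against 9.04% of all 27025 genes with a promoter there. The match is a description of the sequence.

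Cd69, Cxcr4, Slc5a3 and Ankrd22 also differed across most libraries. Cd69, an early activation antigen that retains lymphocytes in tissue, had 15, 10.7, 11.5, 14.3, 12.3, 15.8, 12.9, 18.4, 12.9 and 7.71 CPM in day 44 replicates 1 to 10, against 28, 11.6, 25.5, 29.2, 17, 20.3, 24.5, 20.6, 10.4 and 30.9 CPM in day 30 replicates 1 to 10. All day 44 values lay below the day 30 median, and the ranges overlapped through day 30 replicates 2, 5 and 9. The log2 fold change was -0.73 ± 0.18. Cxcr4, the receptor that holds leukocytes in bone marrow, averaged 32.5 ± 7.60 CPM on day 44 and 47.9 ± 11.4 CPM on day 30, a log2 fold change of -0.56 ± 0.15. Both genes had an adjusted p of 0.408 in edgeR's test of the 20 libraries, and in the fit of 70 libraries Cd69 had 0.0295 and Cxcr4 0.0290. Slc5a3, a transporter of the osmolyte myo-inositol, averaged 3.36 ± 1.30 CPM on day 44 and 7.02 ± 2.69 CPM on day 30, a log2 fold change of -1.05 ± 0.23, with an adjusted p of 0.0212 in DESeq2.

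Ankrd22, a gene of an ankyrin repeat protein, had higher values in most day 44 libraries. It had 6.05, 2.79, 6.36, 8.1, 4.94, 2.53, 1.55, 6.08, 7.02 and 5.78 CPM in day 44 replicates 1 to 10, against 2.14, 3.03, 2.91, 2.79, 2.55, 2.49, 1.53, 1.44, 2.28 and 2.39 CPM in day 30 replicates 1 to 10. The day 44 libraries fell into 7 above every day 30 value and replicates 2, 6 and 7 within the day 30 range. The log2 fold change was 1.12 ± 0.23, with an adjusted p of 0.408 in edgeR's test and 0.00969 in DESeq2. It was called without day 44 replicate 7 (1.24, adjusted p = 0.0263), the 1 call made in any of the 20 fits that left out a library. Like Slc5a3 it was picked after its values were seen, among the 12 protein-coding genes of smallest p with a median of at least 1 CPM on either day.

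Immediate early genes as a group were split. Of 19 members, 3 were lower on day 44 at an unadjusted p under 0.05 (4.02% of all genes tested were) and 0 higher (7.66%), and the list median was -0.0034. Beside Cd69 these were Fosb and Fos, subunits of the AP-1 transcription factor. Fosb averaged 0.273 ± 0.215 CPM on day 44 and 0.651 ± 0.474 CPM on day 30, a log2 fold change of -1.29 ± 0.45. Fos averaged 5.18 ± 2.41 CPM on day 44 and 7.87 ± 2.59 CPM on day 30, a log2 fold change of -0.59 ± 0.25. Egr1 and Jun, which respond to the same kind of stimulus, stood at 0.36 and 0.17. Of the 12 glucocorticoid-responsive genes 1 was lower at that threshold (Cxcr4, beside 4.02% of all genes tested), 0 were higher (7.66%), and Fkbp5 and Tsc22d3 stood at 0.28 and -0.21.

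Neutrophil genes tended to be higher on day 44. All 24 tested members of the mature neutrophil list had a positive log2 fold change, beside 49.4% of all genes tested, 9 of them at an unadjusted p under 0.05 (7.66% of all genes tested were higher at it), and the median was 0.59. The list mean was 6.06, 5.39, 6.04, 6.51, 5.18, 4.86, 4.36, 5.87, 5.97 and 5.85 log2 CPM in day 44 replicates 1 to 10, against 4.77, 6.35, 5.09, 4.98, 4.90, 5.26, 4.71, 4.77, 5.39 and 4.84 in day 30 replicates 1 to 10. Day 30 replicate 2 stood apart from the other 9 day 30 libraries and above 9 of the 10 day 44 libraries. The 9 genes at an unadjusted p under 0.05 depended on single libraries. They were 21 without day 30 replicate 2 (median 0.78) and 17 without day 44 replicate 7, but 3 without day 44 replicate 9 and 4 without day 44 replicate 1, day 44 replicate 4 (median 0.45) or day 30 replicate 7. In the fit of 70 libraries they were also 4.

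Among granule proteins, Ngp, the neutrophilic granule protein, averaged 2.33 ± 1.68 CPM on day 44 and 1.14 ± 0.71 CPM on day 30, a log2 fold change of 1.04 ± 0.35, with all 10 day 44 libraries above the day 30 median. Ltf, the iron-binding lactoferrin, averaged 7.54 ± 4.17 CPM on day 44 and 3.97 ± 2.77 CPM on day 30, a log2 fold change of 0.92 ± 0.35. Camp, the antimicrobial cathelicidin, stood at 1.09 ± 0.46. S100a8 and S100a9, whose products pair to form calprotectin, had far higher CPM values. S100a8 averaged 2088 ± 1127 CPM on day 44 and 1219.9 ± 661 CPM on day 30, and S100a9 averaged 2671 ± 1203 CPM on day 44 and 1735 ± 773 CPM on day 30, log2 fold changes of 0.78 ± 0.34 and 0.62 ± 0.29. Hcar2, the niacin and butyrate receptor, averaged 13.7 ± 5.27 CPM on day 44 and 9.13 ± 2.29 CPM on day 30, with 7 of 10 day 44 libraries above all of day 30. The edgeR adjusted p of these genes ran from 0.408 for Ngp, Ltf and Hcar2 to 0.42 for S100a9. Steap4, a metalloreductase of neutrophils, stood at 0.63 ± 0.31, and Il1r2, the decoy receptor of interleukin 1, at 0.66 ± 0.32. Markers of immature granulocytes, a separate list that does not hold Ngp, Ltf or Camp, had a median of 0.01, with 4 of 8 positive. Whether these lists tell stages of neutrophil maturation apart was not tested.

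B cell genes tended to be lower on day 44. Of 17 members, 0 had a positive log2 fold change, 12 were lower at an unadjusted p under 0.05 (4.02% of all genes tested were), and the median was -0.45. The list mean was 3.53, 3.94, 4.07, 3.79, 3.70, 4.38, 3.37, 3.69, 3.87 and 2.77 log2 CPM in day 44 replicates 1 to 10, against 4.27, 3.17, 4.14, 4.05, 4.36, 3.84, 4.53, 4.60, 4.33 and 4.35 in day 30 replicates 1 to 10. The lowest values were in day 44 replicate 10 and, on day 30, in replicate 2, the library with the high neutrophil mean. The 12 genes at an unadjusted p under 0.05 were 7 without day 44 replicate 7 or replicate 10, and 4 without day 44 replicates 5, 7 and 10 together, the libraries with high erythroid genes, where the median was -0.34. Over all genes tested, the 2124 in either direction were 1389 without replicate 7, 1431 without replicate 10 and 1820 without the 3. Cd79b, which carries the signal of the antigen receptor into B cells, averaged 33.3 ± 7.61 CPM on day 44 and 46.9 ± 13.8 CPM on day 30, a log2 fold change of -0.49 ± 0.16. Fcer2a, the low-affinity IgE receptor CD23, stood at -0.68 ± 0.23 and Ebf1, a factor of the B lineage, at -0.58 ± 0.21, and all of these had an adjusted p of 0.408 in edgeR's test.

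MHC class II genes, which present antigen on B cells, dendritic cells and monocytes, had 1 of 11 positive, 7 lower at an unadjusted p under 0.05 (4.02% of all genes tested were) and a median of -0.40. The 7 were 3 without day 30 replicate 8 and 4 without day 44 replicate 1, 7, 8 or 10. Without day 44 replicates 5, 7 and 10 together 4 were lower, with a median of -0.28. H2-Ab1, a class II beta chain, averaged 32.8 ± 7.00 CPM on day 44 and 43.3 ± 10.8 CPM on day 30, with all 10 day 44 libraries below the day 30 median and a log2 fold change of -0.40 ± 0.16. H2-Ob and H2-DMb2, which govern peptide loading, stood at -0.46 ± 0.16 and -0.46 ± 0.17. T cell genes had a smaller median of -0.17, with 2 of 20 positive and 1 (Ccr7, the lymph node homing receptor, -0.44 ± 0.18) at an unadjusted p under 0.05, near the 4.02% of all genes tested. The lowest T cell means were in day 44 replicates 10 and 7, 2.75 and 3.05 log2 CPM, and without replicates 5, 7 and 10 the median was -0.04, with 8 of 20 positive. NK and cytotoxic genes had a median of -0.29, with 1 of 16 positive and 0 at an unadjusted p under 0.05, although 6 were lower without day 44 replicate 6.

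**Figure D3:**
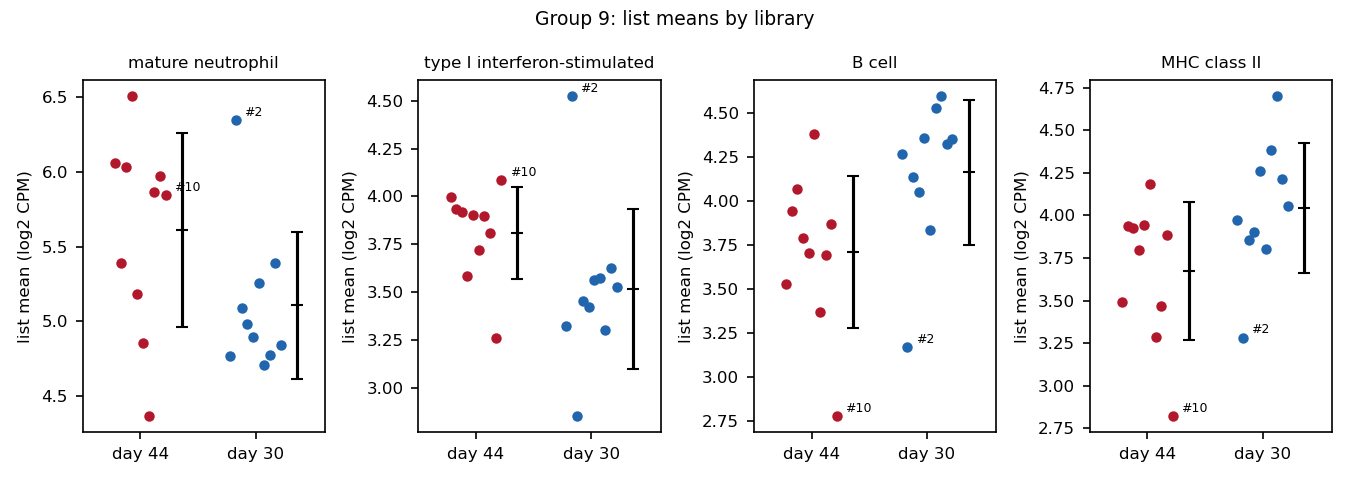
Mean log2 CPM of 4 gene lists in the 10 day 44 (red, left) and 10 day 30 (blue, right) libraries of group 9, with the mean and SD over libraries as black bars. Day 30 replicate 2 is the highest day 30 library for neutrophil (6.35) and interferon-stimulated (4.52) genes and the lowest for B cell genes (3.17), and day 44 replicate 10 is the lowest of all for B cell genes (2.77).

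Of the genes of allergic effector cells, basophil and mast cell markers had a median of -0.41, with 2 of 12 positive and 3 lower at an unadjusted p under 0.05 (4.02% of all genes tested were). These were 1 without day 30 replicate 3, 5 without day 44 replicate 8 and 6 without day 30 replicate 2. Gata2, a transcription factor of basophils and mast cells, averaged 1.44 ± 0.17 CPM on day 44 and 1.98 ± 0.35 CPM on day 30, with all 10 day 44 libraries below the day 30 median and a log2 fold change of -0.46 ± 0.15 (adjusted p = 0.408, edgeR). Ms4a2, the beta chain of the high-affinity IgE receptor, stood at -0.38 ± 0.19. Tpsb2, a mast cell tryptase, was listed at 0 in all 10 day 44 libraries and in 7 of 10 day 30 libraries. Eosinophil genes had a median of 0.01 with 6 of 10 positive, 0 of them at an unadjusted p under 0.05 in either direction. Monocyte genes had a median of 0.02 and platelet genes one of -0.15.

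Most interferon-stimulated genes had a positive log2 fold change, with list means that overlapped between the days. Of 30 members, 26 were positive, 6 were higher at an unadjusted p under 0.05 (7.66% of all genes tested were), and the median was 0.26. The list mean ran from 3.26 to 4.08 log2 CPM on day 44. On day 30 it was 4.52 in replicate 2 and between 2.85 and 3.63 in the other 9 libraries. Day 44 replicate 9 (3.26) lay below 8 of those 9, and the other day 44 libraries were at 3.58 or above. The 6 genes at an unadjusted p under 0.05 depended on single libraries: they were 17 without day 30 replicate 2 (median 0.49, 29 of 30 positive), but 3 without day 44 replicate 7. Without day 44 replicates 5, 7 and 10 together there were 4, with a median of 0.19. Ifih1, the sensor MDA5 of double-stranded RNA, averaged 21.1 ± 8.26 CPM on day 44 and 14.6 ± 5.56 CPM on day 30, with all 10 day 44 libraries above the day 30 median and a log2 fold change of 0.53 ± 0.20.

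Isg15, a ubiquitin-like modifier, was high in 3 day 44 libraries. It had 41.1, 19, 22.7, 17.4, 210, 23.5, 750, 18.5, 10.2 and 260 CPM in day 44 replicates 1 to 10, against 19.1, 52, 12.2, 14.5, 25.3, 47.1, 34.6, 22.4, 27.3 and 40.4 CPM in day 30 replicates 1 to 10. Day 44 replicates 5, 7 and 10 held the high values, and the other 7 day 44 libraries lay between 10.2 and 41.1 CPM, within the day 30 range but for the lowest. The log2 fold change was 2.22 ± 0.75 with them and -0.44 without them. Rsad2, the antiviral protein viperin, had the same 3 libraries as its highest, with 1.11 ± 0.46 with them and -0.33 without them, as had Cmpk2, a mitochondrial nucleotide kinase, with 1.10 ± 0.39 and 0.11. These 3 libraries are the ones in which erythroid genes were high.

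The interferon-stimulated response element holds paired GAAA units, and a pair of GAAA units on one strand with any 2 bases between them was searched on both strands. The promoter of Isg15, shown because the gene's level ran so unevenly over the day 44 libraries, holds 3 overlapping matches that begin 78, 72 and 66 bases before the start. It spans chr4:156200769-156201068 on the minus strand of GRCm38.p6 (RefSeq), with the matched stretch in capitals.
Isg15: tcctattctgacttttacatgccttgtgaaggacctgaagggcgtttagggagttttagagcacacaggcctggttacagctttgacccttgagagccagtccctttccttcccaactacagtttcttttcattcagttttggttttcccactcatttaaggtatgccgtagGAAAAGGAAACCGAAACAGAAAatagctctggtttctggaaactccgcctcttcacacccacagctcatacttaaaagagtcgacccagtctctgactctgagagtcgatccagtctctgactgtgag
A match was found for 13 of 20 interferon-stimulated genes with a listed promoter, against 3.99% of all genes there.

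Erythroid, respiratory chain and mitosis genes gave the largest positive medians of the comparison, and these rested on 3 of the 10 day 44 libraries. All 30 erythroid genes had a positive log2 fold change, 18 at an unadjusted p under 0.05 (7.66% of all genes tested were higher at it), with a median of 1.03. The list mean was 7.10, 6.14, 6.28, 6.25, 8.61, 6.45, 9.67, 6.37, 5.88 and 8.82 log2 CPM in day 44 replicates 1 to 10, and between 6.23 and 7.30 on day 30. Replicates 5, 7 and 10 stood above every day 30 library, and the other 7 day 44 libraries lay within or below the day 30 range. Without these 3 libraries, an alternative chosen after seeing the data, 0 of 30 genes were positive and the median was -0.30. The 3 were picked as the highest of this list and all day 30 libraries were kept. A fall was therefore built in, and the negative sign is no result about the change. Without replicate 7 alone, 30 of 30 stayed positive, with a median of 0.53.

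Among heme enzymes, Alad, delta-aminolevulinate dehydratase, had 4.2, 3.89, 3.6, 2.98, 32.2, 3.93, 89.5, 3.47, 2.15 and 24.1 CPM in day 44 replicates 1 to 10, against 3.55, 1.91, 2.56, 2.7, 4.75, 7.26, 6.42, 6.83, 3.49 and 5.26 CPM in day 30 replicates 1 to 10. Its log2 fold change was 1.91 ± 0.67, and -0.37 without the 3 high libraries. Alas2, the rate-limiting erythroid enzyme of heme synthesis, stood at 0.49 ± 0.40. Tfrc, the transferrin receptor for iron uptake, averaged 986 ± 1415 CPM on day 44 and 332 ± 110.9 CPM on day 30, and Rhd, a blood group antigen of the red cell membrane, 43.3 ± 71.1 and 10.7 ± 5.01 CPM. Klf1, a transcription factor of the red cell lineage, had 4.92, 1.58, 1.29, 1.28, 7.67, 1.57, 23.2, 1.51, 0.722 and 11.2 CPM in day 44 replicates 1 to 10, against 1.67, 0.978, 1.5, 1.57, 2.79, 2.9, 1.37, 2.1, 0.732 and 2.57 CPM in day 30 replicates 1 to 10. Its log2 fold change was 1.56 ± 0.57, and -0.0056 without the 3 libraries.

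GATA factors drive erythroid genes through GATA motifs, and GATAA was searched on both strands. The promoter of Klf1 is shown because this regulator followed the list. It spans chr8:84901732-84902031 on the plus strand of GRCm38.p6 (RefSeq) and holds 1 match, on the other strand, that begins 80 bases before the start.
Klf1: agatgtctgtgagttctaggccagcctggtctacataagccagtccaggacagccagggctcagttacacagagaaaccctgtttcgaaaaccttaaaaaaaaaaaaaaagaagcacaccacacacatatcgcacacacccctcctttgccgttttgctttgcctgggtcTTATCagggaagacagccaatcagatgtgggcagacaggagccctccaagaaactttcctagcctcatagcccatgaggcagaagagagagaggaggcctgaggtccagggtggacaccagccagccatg
A match was found for 12 of 21 erythroid genes with a listed promoter, against 28.4% of all genes there.

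**Figure D4:**
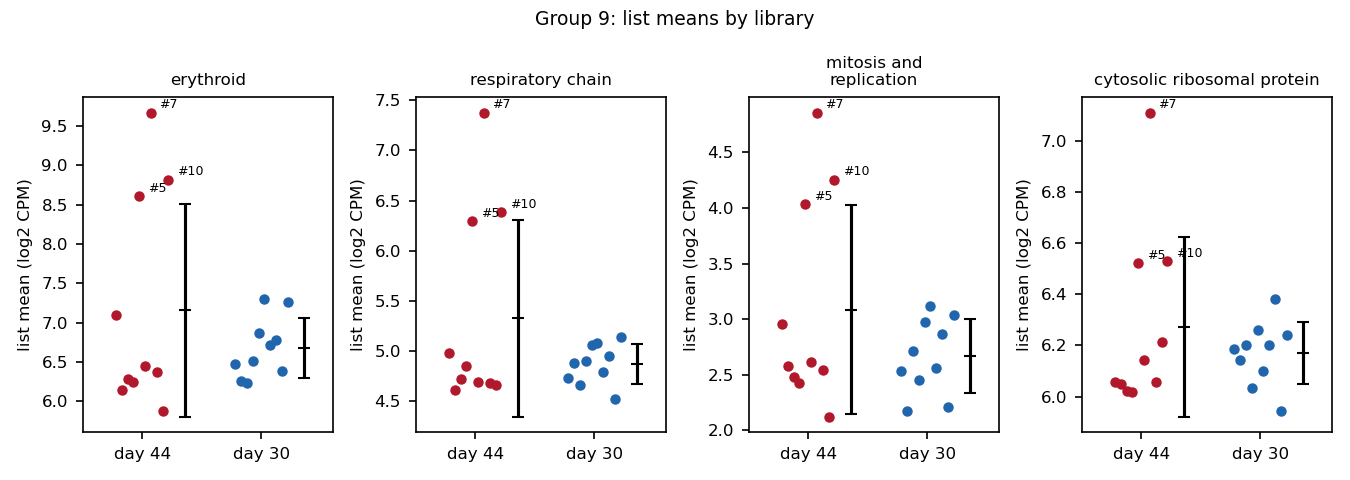
Mean log2 CPM of 4 gene lists in the 10 day 44 (red, left) and 10 day 30 (blue, right) libraries of group 9, with the mean and SD over libraries as black bars. Day 44 replicates 5, 7 and 10 are the highest in every panel, with erythroid means of 8.61, 9.67 and 8.82, and the other 7 day 44 libraries overlap day 30.

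The same 3 libraries were the highest for nuclear genes of the respiratory chain, with list means of 6.29, 7.38 and 6.38 log2 CPM in day 44 replicates 5, 7 and 10, between 4.61 and 4.99 in the other day 44 libraries and between 4.52 and 5.15 on day 30. Of 17 members 15 were positive, 13 at an unadjusted p under 0.05 (7.66% of all genes tested were higher at it), with a median of 0.92 and -0.14 without the 3 libraries. Cox7a2, a cytochrome c oxidase subunit, stood at 1.94 ± 0.64 and Uqcrc2, a subunit of complex III, at 1.35 ± 0.46. Mitosis and replication genes had a median of 0.66, with 22 of 24 positive and 8 higher at an unadjusted p under 0.05 (7.66%), and a median of -0.17 without the 3 libraries. Mki67, the proliferation marker Ki-67, averaged 2272 ± 3117 CPM on day 44 and 678 ± 288 CPM on day 30, and Ccnb2, a mitotic cyclin, 29.1 ± 39.03 and 7.92 ± 2.97 CPM. Cytosolic ribosomal protein genes followed the same libraries with a smaller median of 0.12.

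Amino acid stress genes had 4 of 20 higher at an unadjusted p under 0.05 (7.66% of all genes tested were), all highest in those libraries. Asns, asparagine synthetase, had 25.2, 146.4 and 40.3 CPM in day 44 replicates 5, 7 and 10, between 2.31 and 9.85 CPM in the other day 44 libraries and between 1.63 and 16.2 CPM on day 30. Its log2 fold change was 2.04 ± 0.74, and -0.10 without the 3 libraries. Mthfd2 and Shmt2, of mitochondrial one-carbon metabolism, and Pck2 stood at 1.54, 1.11 and 1.13 with them and at -0.21, -0.33 and -0.47 without them. Gstt1, a glutathione transferase chosen after its values were seen, had 17.4, 61.6 and 9.49 CPM there and at most 1.2 CPM in every other library, a log2 fold change of 4.02 ± 1.04 (adjusted p = 0.408 in edgeR, 0.00426 in DESeq2).

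In the fit of 70 libraries 371 of the 375 genes called higher (98.9%) had their maximum in day 44 replicate 5, 7 or 10, and 360 of them in replicate 7. Erythroid genes made up 7 of these calls, respiratory chain genes 7 and mitosis genes 4, beside 2.06% of all genes called higher in that fit. The share of counts on the Rn7s genes, 3 genes whose symbols begin with Rn7s, was 22.7% to 30.5% in the 3 libraries, and 12.4% to 18.9% in the other 7 day 44 libraries. Mitochondrial rRNA took 6.39% to 13.4% of the 3 and 13.9% to 22.3% of the other 7. The part of these shares in the gene differences was not tested. All 3 libraries had a dermatitis score of 2, and none of the 5 libraries with a score of 3 was among them.

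High erythroid means were also found in other cohorts. With all 190 libraries scaled together, 28 of the 80 second-sampling libraries of the other conventional groups were above the highest group 9 day 30 library, and 6 of the 80 reached the third-highest group 9 day 44 library. At the first sampling of these groups, 1 library of group 5 and 1 of group 7 were above the highest group 9 day 30 library, and 0 in each other group. None of these first-sampling libraries reached the third-highest group 9 day 44 library. In the SPF control there were 0 on either day.

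Collagen and other stroma genes were low in blood at both samplings, and part of them were lower on day 44. Of 15 tested skin stroma and muscle genes 4 were lower at an unadjusted p under 0.05 (4.02% of all genes tested were) and 1 higher (near the 7.66% of all genes), with a median of -0.61. The direction was not particular to group 9. In the fit of 70 libraries the list median from first to second sampling was -0.58 in group 9, -1.15 in group 8, -2.01 in group 7 and -1.13 in the SPF control. Col3a1, a fibrillar collagen chain, had 2.03, 11.1, 2.43, 3.3, 2.06, 6.52, 3.88, 4.61, 4.5 and 1.07 CPM in day 44 replicates 1 to 10, against 9.43, 5.96, 24.2, 6.36, 4.88, 6.13, 28.5, 9.87, 10 and 4.15 CPM in day 30 replicates 1 to 10. The highest values were in day 30 replicates 3 and 7, and 6 of 10 day 44 libraries lay below every day 30 library. Its log2 fold change was -1.38 ± 0.42, that of Dcn, the collagen-binding proteoglycan decorin, -1.25 ± 0.43 and that of Sparc, a matrix glycoprotein, -1.30 ± 0.50. Adgrf5, an endothelial adhesion receptor, averaged 0.704 ± 0.336 CPM on day 44 and 1.63 ± 0.52 CPM on day 30, and Fermt2, an integrin adaptor, 0.415 ± 0.197 and 1.05 ± 0.37 CPM, and both were called lower by DESeq2 (adjusted p of 0.0227 and 0.0265). Mylpf, a myosin light chain of fast muscle, was the 1 gene higher, at 1.13 ± 0.39. In tail blood these genes mark cells of skin, muscle and vessel wall, whose part in the other differences was not tested. The cartilage and bone list did not share this direction, with 8 of 15 positive, a median of 0.05, and 2 higher (7.66% of all genes tested were) and 0 lower (4.02%) at an unadjusted p under 0.05.

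Hair and keratinocyte genes were near 0 in most libraries, and the members named here had their highest values in 1 library of either day. Of 15 tested members 4 were lower on day 44 at an unadjusted p under 0.05 (4.02% of all genes tested were) and 3 higher (7.66%). Tchh, a protein of the hair follicle sheath, stood at 8.57 CPM in day 30 replicate 6, while none of the other 19 libraries had more than 0.188 CPM. Krt35, a hair keratin, was listed at 0 in all 10 day 44 libraries and had 0.407 CPM in day 30 replicate 6. Krt15, a keratin of basal keratinocytes, had its highest value there too, 0.335 CPM. The list median was -0.74, and 0.11 without that library. The higher members, singled out after their values were seen, were Krt1 and Krt10, keratins of the upper epidermis, and Flg, the barrier protein filaggrin, with 5.28, 4.50 and 1.19 CPM in day 44 replicate 7. None of the other 19 libraries had more than 0.653 CPM for Krt1, 0.979 CPM for Krt10 or 0.118 CPM for Flg.

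With the erythroid list mean as a covariate, added after the data were seen, 11 genes were called (0.0605%), 1 higher (0.0055%) and 10 lower (0.055%). They were Ankrd22 on the higher side, and Mat2a (-0.52), Hsph1 (-0.72) and Dnajb1 (-0.69) on the lower, with adjusted p from 0.0190 to 0.0260 in edgeR's test. Of the other 7, 6 had counts in day 30 replicate 6 alone (Krt71, Krt33a, Krt34, Krtap22-2, Krtap1-5 and Serpinb11) and Gm43802 in day 30 replicate 10 alone.

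No gene passed the test of a slope on the dermatitis score. In a fit of the 20 libraries with the day as a covariate, 0 of 18192 genes had a slope on the score at an adjusted p under 0.05 (0%), and 545 (3%) had an unadjusted p under 0.05, 260 with a positive slope (1.43%) and 285 with a negative one (1.57%). DESeq2 called 3. The number at an unadjusted p under 0.05 was 3225 with the libraries of score 0.5 left out, 1548 in day 30 alone and 306 in day 44 alone, each with 0 called. Neutrophil genes had a positive slope in 21 of 24 cases, with a median of 0.13 (log2 per score point), and 2 had an unadjusted p under 0.05, beside 1.43% of all genes tested with a positive slope. Erythroid genes had a positive slope in 0 of 30, with a median of -0.40, and 0 had an unadjusted p under 0.05. B cell genes had a median of -0.08 and interferon-stimulated genes one of 0.09.

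Group 9 was set beside the cohorts with the nearest first samplings, group 8 (days 40 and 26) and group 7 (days 44 and 23), and beside the SPF control (days 44 and 16), which had a score of 0 throughout. Within the same fit group 8 had 55 genes called (0.302%), group 7 had 0.863% of the genes called and the control 3 genes (0.0165%). The difference between the change in group 9 and that in group 8 was called for 0 of 18192 genes (0%; 1685 at an unadjusted p under 0.05, 9.26%, and 12 called by DESeq2). That between group 9 and group 7 was also called for 0 (0%; 1647, 9.05%, and 9 by DESeq2). The groups differ in days and interval as well as in cohort, which cannot be told apart.

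Mature neutrophil genes had a median of 0.59 in group 9, 0.88 in group 8, -0.37 in group 7 and 0.0077 in the control. Of the 24 members, 10 had a higher change in group 9 than in group 7 at an unadjusted p under 0.05 (4.32% of all genes tested had), and 1 had a lower change in group 9 than in group 8 (3.38%). B cell genes had medians of -0.44 in group 9, -0.32 in group 8, 0.34 in group 7 and -0.20 in the control, and 13 of 17 had a lower change in group 9 than in group 7 at an unadjusted p under 0.05 (4.73%). MHC class II genes followed with -0.40, -0.26, 0.23 and -0.15, and 7 of 11 lower against group 7. For NK and cytotoxic genes the medians were -0.28 in group 9, -0.47 in group 8, -0.46 in group 7 and -0.08 in the control. Of 16 members 2, 11, 10 and 0 were lower at the second sampling at an unadjusted p under 0.05. Of all 18192 genes tested, 1000, 956, 1226 and 191 were. Erythroid genes had medians of 1.03, 0.30, 0.86 and -0.61, with 30, 29, 30 and 0 of 30 positive. At an unadjusted p under 0.05, 9 of 30 had a higher change in group 9 than in group 8 (5.89%), and 0 than in group 7 (4.32%). Mitosis genes had medians of 0.66, -0.12, 0.11 and -0.36, and 14 of 24 had a higher change in group 9 than in group 8 (5.89%). Without day 44 replicates 5, 7 and 10 the group 9 median of mitosis genes in the 20-library fit was -0.17. These libraries were picked by their high erythroid genes, and none was left out of group 8. A fall was built in, so this value does not bear on the difference from group 8. Heat shock genes had medians of -0.13, 1.9e-04, -0.37 and -0.04, with Hspa1b at -1.76 in group 9, -1.08 in group 8, -0.74 in group 7 and -1.23 in the control. Mat2a stood at -0.58, -0.53, -0.35 and -0.07, and Ankrd22 at 1.12, 1.64, -0.46 and -0.59.

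**Figure D5:**
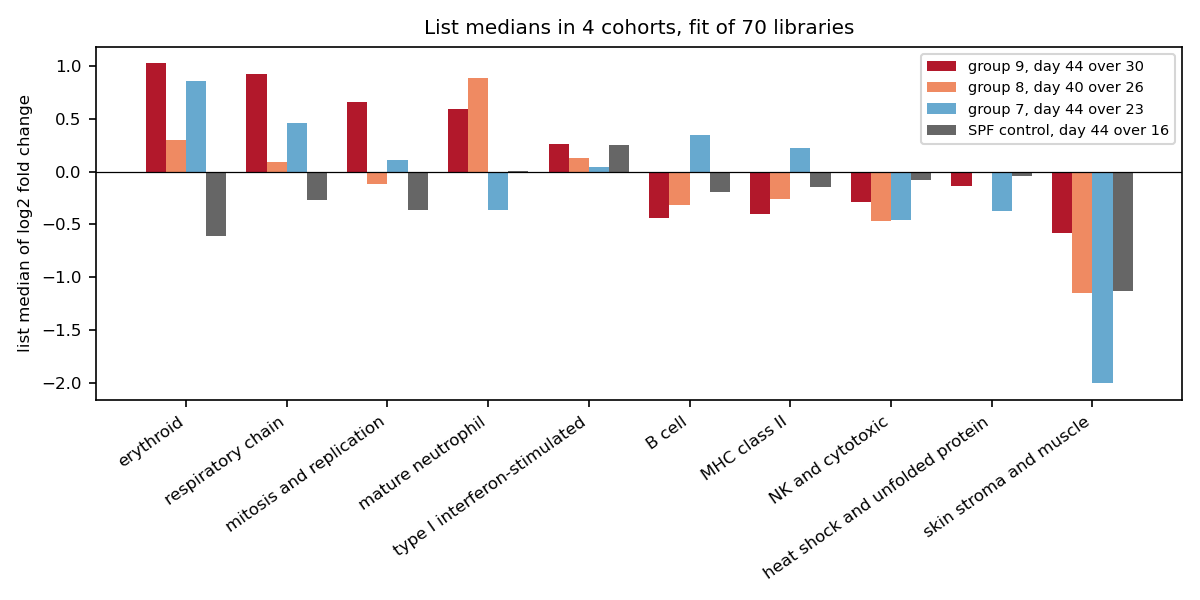
List medians of the log2 fold change from the first to the second sampling in group 9, group 8, group 7 and the SPF control, from 1 fit of 70 libraries. Neutrophil medians are positive in groups 9 (0.59) and 8 (0.88) and negative in group 7 (-0.37), B cell medians are of the opposite sign in each, and the erythroid median is 1.03 in group 9, 0.30 in group 8, 0.86 in group 7 and -0.61 in the control.

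Against the SPF control 3 genes had a higher change in group 9 (0.0165%), and all rested on 1 control library. Lars2, a mitochondrial leucyl-tRNA synthetase, differed by 5.29 ± 0.88 (adjusted p = 0.00186, edgeR), Rn18s-rs5, an 18S rRNA-related sequence, by 7.55 ± 1.36 and Hba-a1, a hemoglobin alpha gene with a near-identical copy, by 5.01 ± 1.01. In group 9 itself Lars2 averaged 2.32 ± 0.96 CPM on day 44 and 2.30 ± 0.77 CPM on day 30. In the control Lars2 ran from 2.92 to 4.13 CPM on day 44, and on day 16 it had 656 CPM in replicate 3 and 2.88 to 3.78 CPM in the other 4 libraries. That library also had 45.3% of its counts on globin genes. Without control replicate 3 the difference for Lars2 was -0.0051 and 0 genes were called.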

How the data were processed

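RNA was isolated from about 0.1 mL of tail-vein blood, and made into stranded libraries of total RNA with a kit depleting ribosomal and globin RNA, per the labels' protocols. The authors deposited expected counts per gene (2.86% of the values were not whole numbers), made with DRAGEN on GRCm39 per the submitters' processing notes. For the DRAGEN version, annotation release, strand setting and read filters: not given in the sources used here. Gene coordinates are those of the deposited count table. A deposited table of normalized values was not used.

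Before testing, each expected count was rounded to a whole number. A filter, filterByExpr, was applied over the 20 groups of the series (minimum count 10, minimum total 15), which left 18192 of 55414 genes, and scaled by TMM. The main fit was edgeR 4.0.16's robust quasi-likelihood test (R 4.3.3) on the 20 group 9 libraries with the day as the term, two-sided, with Benjamini-Hochberg adjustment over all genes and a threshold of 0.05. DESeq2 1.42.0 was an alternative. The differences of changes came from 1 fit of 70 libraries, and the score slope from the 20 libraries with the day as a covariate. The standard error (SE) of a log2 value was obtained by dividing its size by the root of the F statistic. CPM values use TMM-scaled library sizes, and list means use log2 CPM with a prior count of 2. The score and shares were compared with 100000 permutations (scipy 1.17.1). The scripts were tested on simulated data.

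Libraries were taken as independent, since the labels do not say that a replicate number marks the same mouse on both days. Over 7075 genes the deviations of same-numbered libraries correlated between -0.53 and 0.59, with 5 of 10 pairs over 0.1, so the numbers were not taken to pair them, and p-values measure the spread between libraries. These correlations do not show that equal numbers mark different mice. The gene lists and their members were chosen with earlier results of these data known. Named genes are up to 4 of smallest p in each described list and, added after the values were seen, the 12 protein-coding genes of smallest p with a median of at least 1 CPM on either day and Steap4, S100a8, S100a9, Alas2, Klf1, Gstt1, Krt1, Krt10, Flg and the members named with their log2 value alone. The rule's part for called genes applied to none, and some genes that the rule names are not reported here. Promoters are RefSeq's for GRCm38.p6, another build than the counts, and were matched by symbol. Genes with near-identical copies (Hspa1a and Hspa1b, the globins, hair keratins and Oas genes) may share reads.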

Additional observations from a re-analysis of the deposited data

Results flagged for a closer look

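Values of the named genes, the described lists, the shares, the total counts and the dermatitis score were examined, for genes on the log2 CPM scale, in each day's 10 libraries for a library far from the others. So marked were 22 sets of 10 values, 11.8% of those examined, where chance marks about 1 in 20.

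On day 44, replicate 10 was low for Ccr7 (3.78 CPM), Dcn (0.0713 CPM) and Sparc (0 CPM), replicate 6 for Camp (0.0844 CPM) and replicate 1 for Fermt2 (0.0362 CPM). Replicate 7 was high for Ifih1 (43.5 CPM) and Flg (1.19 CPM) and the only day 44 library with counts on Krt15 (0.0517 CPM). The basophil and mast cell list mean was lowest in replicate 5 (-0.29 log2 CPM), and the dermatitis score lowest in replicate 9 (0.5).

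On day 30, replicate 2 was high for Il1r2 (17.9 CPM), S100a9 (3825 CPM), the mature neutrophil list (6.35 log2 CPM) and the interferon-stimulated list (4.52), and low for the B cell list (3.17). Replicate 6 was high for Krt15 (0.335 CPM), Krt35 (0.407 CPM), Tchh (8.57 CPM) and the keratinocyte and hair list (-1.03 log2 CPM). Replicate 3 was low for Cox4i1 (20.2 CPM). Replicate 8 had the lowest globin share (0.728%) and mitochondrial rRNA share (3.54%).

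The change in group 9 exceeded that in the SPF control by 5.29 for Lars2, 5.01 for Hba-a1 and 7.55 for Rn18s-rs5 (log2), 3 differences that passed edgeR's test of the difference itself. They were not called without control replicate 3, in which Hba-a1 had 223880 CPM on day 16.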

How the results depend on the processing

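The count of 0 genes called on day 44 against day 30 was also found with other size factors, with TMM leaving out the Rn7s, mitochondrial rRNA and globin genes, with other filters, with the score or the shares as covariates, with scores of 2 or more only, with libraries of at least 5% globin, and with the replicate block (0 called, 945 at an unadjusted p under 0.05; the numbers were not shown to pair the libraries). It moved to 13 genes (0.0719%) in DESeq2, 420 (2.31%) in the fit of 70 libraries, 11 (0.0605%) with the erythroid list mean as a covariate and 15 (0.0825%) with the neutrophil mean added. Leaving out each library gave 0 to 1 calls (0% to 0.0055%) and 1389 to 2640 genes at an unadjusted p under 0.05. The score slope moved from 0 to 3 calls (0.0166%) in DESeq2 and 1 (0.0055%) with the shares as covariates. The difference from group 8 moved from 0 to 12 (0.0661%) in DESeq2. That from group 7 moved from 0 to 9 (0.0495%) in DESeq2 and to 0.863% of genes in libraries of at least 5% globin. That from the control moved from 3 (0.0165%) to 246 (1.35%) in DESeq2, to 0 with the shares as covariates or the replicate block, to 1 (Lars2, 0.0055%) without day 44 replicates 5, 7 and 10 of group 9, and ran from 0% to 0.0165% with each control replicate left out. The block changed no other call. These causes were not tested. Day 44 replicates 5, 7 and 10 were picked by their high erythroid genes, with all of day 30 kept. For genes that follow these libraries, a lower value without them was built in. Without day 44 replicates 5, 7 and 10 the log2 fold change turned to -0.37 for Alad, -0.36 for Alas2, -0.10 for Asns, -0.24 for Atp5b, -0.27 for Ccnb2, -0.14 for Cox4i1, -0.27 for Cox7a2, -0.44 for Isg15, -0.0056 for Klf1, -0.21 for Mki67, -0.21 for Mthfd2, -0.47 for Pck2, -0.39 for Rhd, -0.33 for Rsad2, -0.33 for Shmt2, -0.14 for Tfrc and -0.092 for Uqcrc2. With the erythroid covariate it turned to -0.15 for Alas2, -0.017 for Isg15, -0.031 for Mthfd2, -0.10 for Pck2 and -0.011 for Rsad2. With the neutrophil mean added it turned to -0.15 for Alas2, -0.21 for Asns, -0.040 for Fkbp5, -0.23 for Isg15, 0.031 for Lef1, -0.56 for Mthfd2, -0.16 for Pck2 and -0.11 for Rsad2. Tchh turned to 0.17 in DESeq2 and 0.11 without day 30 replicate 6, and ran from -4.16 to 0.11 with each library left out. Leaving out each library kept the list medians between 0.45 and 0.78 for neutrophil, -0.54 and -0.33 for B cell, 0.21 and 0.49 for interferon-stimulated and -0.19 and -0.07 for heat shock genes.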
